A study of Rattus norvegicus with 12 samples.

Results

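NRK-52E cells that had received TGF-beta1 and then extracellular vesicles of the preparation labelled 2D-EVs were compared with untreated cells, so that what still set them apart from the untreated state could be described. The comparison held 6 of the 12 libraries of the series, chosen by their labels: 3 of cells given TGF-beta1 followed by 2D-EVs (2D-EV cells) and 3 of control cells, over every gene of the joint count table. NRK-52E is an established line of rat renal tubular epithelial cells, and all groups were wild type per the labels. No agent is named for control cells in the labels. The 2D-EV cells had TGF-beta1 for 24 h at a labelled 10 µg/ml, a unit that is in doubt because ng/ml doses are usual, and then vesicles at 500000000 particles/ml for 48 h. The 3 libraries of cells that had TGF-beta1 for 24 h and no vesicles (TGF-beta1 cells) are set beside them, and 3 libraries of cells given 3D-EVs entered the fit only. Neither the cells that made the vesicles, nor the fate of TGF-beta1 in the medium, nor the harvest time of control and TGF-beta1 cells is given in the sources used here. An effect of the vesicles, of the additional time and of the end of TGF-beta1 exposure therefore cannot be told apart. The labels do not say that libraries came from separate cultures, so the p-values rest on a spread between libraries that may be technical only.

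TGF-beta1 is the cytokine best known for driving fibrosis. It is secreted in a latent complex, is freed by integrins and thrombospondin, and signals through a pair of receptor kinases to Smad transcription factors, which switch on genes for matrix, matrix crosslinking, protease inhibitors and the contractile cytoskeleton, while the inhibitory Smads and Smurf ligases damp the signal. In tubular epithelial cells of the injured kidney it is associated with loss of tight junctions, cell cycle exit, less fatty acid oxidation and a matrix-producing, partly mesenchymal state.

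The 6 libraries held 32888125 to 35301983 counts, and 1 count equalled 0.028 to 0.0305 CPM (counts relative to the library total, scaled for composition by the TMM method). The limit that a count of 0 allows (3 counts) was 0.0840 to 0.0916 CPM, which covers counting error alone. Mitochondrial transcripts took 5.40 to 5.58% of counts, and 0 of 13 mitochondrially encoded genes differed between the groups. Of 14 tubular epithelial markers 7 could be tested. Krt8 and Ggt1 rose, their list summed to 1189.9 to 1219 CPM in control libraries and 1476 to 1513 CPM in 2D-EV libraries, and 4 defining markers (Pax2, Krt18, Epcam, Hnf4a) were at 0 counts in all 9 control, TGF-beta1 and 2D-EV libraries. Among immune markers Ptprc, Itgam and 4 others were at 0 in those libraries, and the list's sum of 182 to 197 CPM in control cells and 222 to 234 CPM in 2D-EV cells was nearly all Cd14. A 0 in this table does not show that a gene was not expressed. Rps6, a ribosomal protein gene that every cell uses, read 0 to 0.122 CPM in these libraries, and Krt18 was at 0 beside its keratin partner Krt8 at 1007, 1013 and 1020.4 CPM in control libraries. Of 8 tested fibroblast and pericyte markers 1 rose (Mcam) and 1 fell (Col14a1), near the 10.5% higher and 8.13% lower among all tested genes. Mcam was weak, at means of 1.25 CPM in control and 2.45 CPM in 2D-EV cells. The list summed to 765 to 810 CPM in control libraries and 720 to 732 CPM in 2D-EV libraries. Most of the control sum was Mfap5 (mean 551 CPM), which did not pass, and Col14a1 (mean 199 CPM). In bulk RNA, more cells of a kind and more RNA per cell cannot be told apart.

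A broad but shallow difference remained between 2D-EV cells and control cells. Of 14184 genes tested, 2642 passed (adjusted p below 0.05, edgeR's quasi-likelihood test), which is 18.6% of the genes tested. Of these, 1489 genes (10.5%) were higher and 1153 (8.13%) lower. Passing genes had a median absolute log2 fold change of 0.26, where 1 unit stands for a factor of 2. Only 148 genes (1.04%) passed with a log2 fold change of at least 1, of which 98 rose and 50 fell. Libraries without overlap were common. All 2D-EV libraries lay above all control libraries for 2438 tested genes (17.2%) and below them for 2278 (16.1%). Both numbers exceed those that passed, so a lack of overlap is a weak sign of a difference on its own. Tested against the same 3 control libraries, TGF-beta1 cells gave 3124 passing genes (22%), 1676 higher (11.8%) and 1448 lower (10.2%). The direct test of 2D-EV cells against TGF-beta1 cells passed for 4 genes (0.0282%), 0 higher and 4 lower, while 1007 genes had an unadjusted p below 0.05. Because all log2 fold changes against control use the same control libraries, values with TGF-beta1 alone are given beside those with 2D-EVs and are not evidence of their own.

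**Figure D1:**
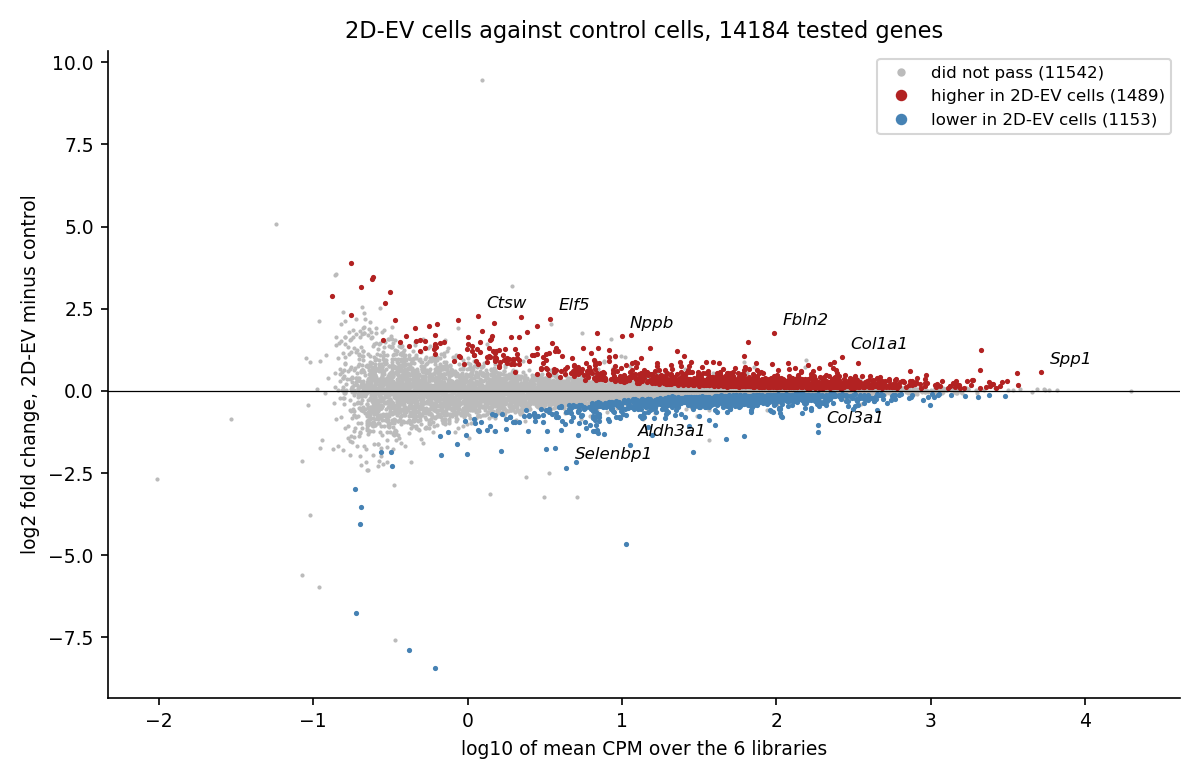
Each point is a tested gene, with the log10 of its mean CPM over the 6 libraries on the horizontal axis and the log2 fold change of 2D-EV cells over control cells on the vertical axis. Coloured points are the 1489 genes that passed upward and the 1153 that passed downward, most of them within 1 unit of 0, with genes such as Fbln2 and Col1a1 standing above and Col3a1 below.

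The 4 genes that separated 2D-EV cells from TGF-beta1 cells were all above control and below TGF-beta1 levels. Ccn2, which encodes connective tissue growth factor, a matricellular protein, read 2832, 2765 and 2871 CPM in control libraries, 4115, 4075 and 3990.5 in TGF-beta1 libraries and 3385, 3438 and 3529.9 in 2D-EV libraries. The 3 groups did not overlap. The log2 fold change of Ccn2 over control was 0.29 (SE 0.03, adjusted p = 2.05e-06) in 2D-EV cells and 0.52 in TGF-beta1 cells, and between the treatments it was -0.23 (adjusted p = 0.00238). Acta2, the smooth muscle actin that marks myofibroblasts, read 601, 555 and 599 CPM in control libraries, 853, 876 and 854 in TGF-beta1 libraries and 709, 731 and 730.2 in 2D-EV libraries. Again no library of a group reached into another group. Its log2 fold changes over control were 0.31 (adjusted p = 1.21e-05) with 2D-EVs and 0.56 with TGF-beta1 alone, a difference of -0.25 (adjusted p = 0.0102).

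Olr1, a scavenger receptor for oxidised lipoprotein, stood at 24.3, 22.9 and 27.5 CPM in control libraries, 57.2, 52.2 and 51.4 in TGF-beta1 libraries and 38.6, 37.1 and 35.9 in 2D-EV libraries. It remained 1.49-fold above control in 2D-EV cells (log2 0.58, adjusted p = 5.89e-05) and was 1.44-fold below TGF-beta1 cells (adjusted p = 0.0117). Frmd4a, a scaffold protein of epithelial polarity, stood at 18.6, 19.5 and 20.9 CPM in control libraries, 31.5, 32.8 and 36.2 in TGF-beta1 libraries and 22.9, 24.3 and 25.2 in 2D-EV libraries. Its 2D-EV libraries lay near the control libraries without overlap, with a log2 fold change over control of 0.30 (adjusted p = 0.00722) and of -0.47 against TGF-beta1 cells (adjusted p = 0.0178). Leaving out 1 library at a time, Ccn2 kept its difference from TGF-beta1 cells in all 6 fits. Acta2 lost it without TGF-beta1 replicate 2 (adjusted p = 0.0614) and without 2D-EV replicate 1 (0.0696) or 2 (0.0511). Olr1 lost it without TGF-beta1 replicate 1 (0.0822) or 2 (0.0522) or 2D-EV replicate 1 (0.0669), 2 (0.0778) or 3 (0.0749). Frmd4a lost it without TGF-beta1 replicate 2 (0.0614) or 3 (0.113) or 2D-EV replicate 1 (0.152), 2 (0.101) or 3 (0.0612), and in the fit of only the 6 libraries compared (0.0577). Just outside the threshold, with an adjusted p of 0.057 each, lay genes including Thbs1, Edn1, Cald1 and F2r, with log2 differences from TGF-beta1 cells of -0.26, -0.36, -0.17 and -0.18.

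The promoters of these 4 genes are shown because they are the genes that passed the direct test. That test passed for 0 genes upward, so their common direction is no separate finding. Each stretch is the 250 bases before the annotated start, 5′ to 3′ on the gene's strand (RefSeq, build GRCr8), with copies of GGAATG, the core of the element bound by TEAD factors, in capitals on either strand.
Ccn2, chr1:22624615-22624864, minus strand: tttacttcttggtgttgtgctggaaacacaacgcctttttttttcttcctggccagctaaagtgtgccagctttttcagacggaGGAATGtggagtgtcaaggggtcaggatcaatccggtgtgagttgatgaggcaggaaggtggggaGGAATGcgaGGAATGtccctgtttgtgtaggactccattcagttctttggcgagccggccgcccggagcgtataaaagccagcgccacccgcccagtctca
Acta2, chr1:241172504-241172753, minus strand: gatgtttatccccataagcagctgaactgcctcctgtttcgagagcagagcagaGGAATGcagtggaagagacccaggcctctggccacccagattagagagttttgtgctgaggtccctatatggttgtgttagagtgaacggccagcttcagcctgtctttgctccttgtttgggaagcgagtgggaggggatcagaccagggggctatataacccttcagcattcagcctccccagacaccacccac
Olr1, chr4:164634548-164634797, minus strand: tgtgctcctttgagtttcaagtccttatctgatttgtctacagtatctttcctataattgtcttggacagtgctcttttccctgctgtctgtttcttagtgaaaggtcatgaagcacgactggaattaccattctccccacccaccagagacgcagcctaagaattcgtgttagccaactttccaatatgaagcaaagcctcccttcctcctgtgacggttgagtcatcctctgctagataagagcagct
Frmd4a, chr17:78855877-78856126, minus strand: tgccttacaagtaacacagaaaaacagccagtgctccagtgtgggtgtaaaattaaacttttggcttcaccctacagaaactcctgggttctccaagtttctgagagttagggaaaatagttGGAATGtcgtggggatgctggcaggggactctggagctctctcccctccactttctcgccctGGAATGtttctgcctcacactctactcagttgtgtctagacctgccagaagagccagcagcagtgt
GGAATG occurred 3 times in the Ccn2 promoter, beginning 166, 101 and 92 bases before the start, once in the Acta2 promoter at 196 bases, 2 times in the Frmd4a promoter at 128 and 66 bases, and 0 times in the Olr1 promoter. Of all 33469 rat promoters of this length 12.1% held the motif on either strand, as did 9.85% of the 10999 promoters of tested genes. It was present in 10 of 26 promoters of the contractile list described below and in 7 of 20 promoters of the list of YAP target and pathway genes. Of the other lists searched, it was in 4 of 18 promoters of TGF-beta targets, 1 of 27 each of mitosis and replication, 1 of 23 of lysosome and 1 of 18 of cholesterol genes. These lists are not separate from the 4 genes: the contractile and YAP lists each include 1 of them and the TGF-beta targets include 2. The Frmd4a promoter also held the SMAD palindrome GTCTAGAC, found in 0.173% of all promoters. The short Smad element CAGACA, found in 17.2% of all promoters, had 1 copy each in Acta2 and Olr1 and 0 in Ccn2 and Frmd4a. Olr1 held a single AP-1 motif (TGANTCA, 6.34% of promoters). GGAATG was not the only motif above its share in a list. AP-1 was in 4 of 26 contractile promoters, against 4.45% of promoters of tested genes. The E-box CACGTG was in 8 of 23 lysosome promoters, against 7.89%. The CArG box (CC, 6 bases of A or T, GG) was in 1 of 26 contractile promoters, against 1.33%, and had 0 copies in Acta2. A match is a run of letters, not a measured binding site, and a part of TEAD factors or Smads in these differences was not tested.

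**Figure D2:**
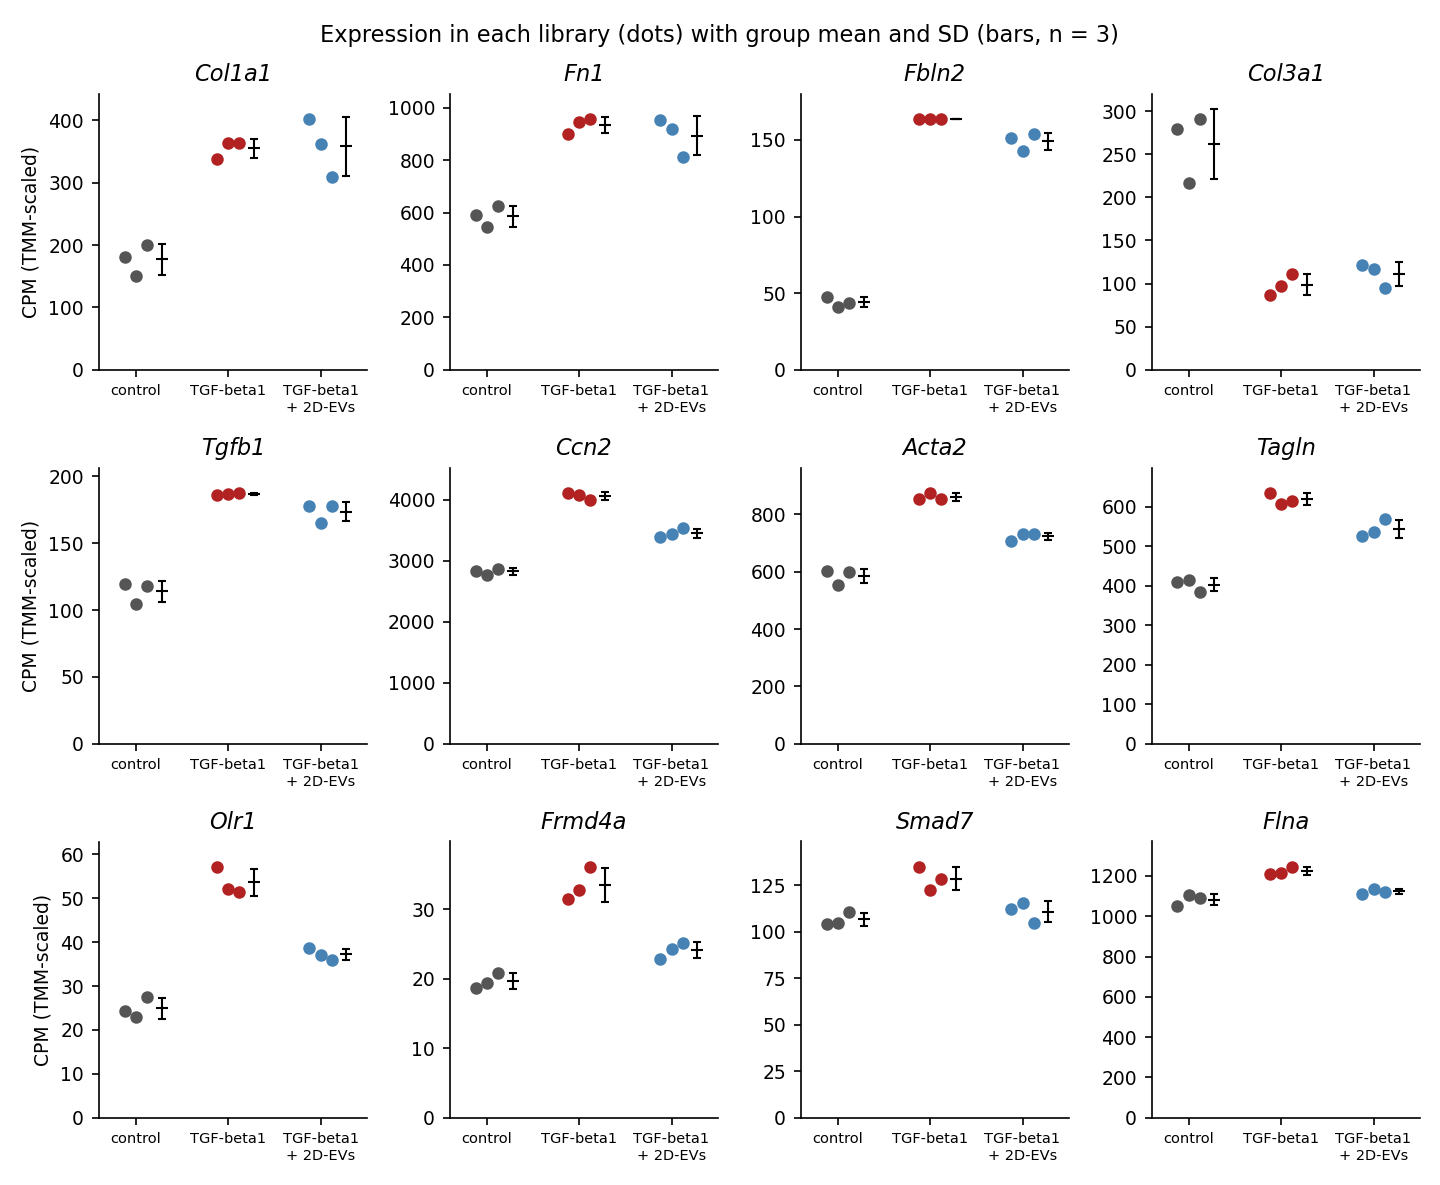
Levels in CPM (vertical axes, starting at 0) of single genes in each of the 9 control, TGF-beta1 and 2D-EV libraries, with a point per library and bars for the group mean and SD (n = 3). Ccn2, Acta2, Olr1 and Frmd4a sit between the other groups in 2D-EV cells, and the Smad7 points of 2D-EV cells overlap those of control cells, whereas Col1a1 and Fbln2 sit near the TGF-beta1 level and Col3a1 stays below control.

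The TGF-beta system itself remained shifted in 2D-EV cells. Of 14 tested genes for ligands, latency proteins and activators, 8 were higher than in control cells and 2 lower, against backgrounds of 10.5% and 8.13% of all genes (7 and 2 with TGF-beta1 alone, against 11.8% and 10.2%). The same backgrounds apply to every list count below, and a count near them says nothing particular about its list. Tgfb1, the ligand's own gene, read 119, 105 and 118 CPM in control libraries and 178, 165 and 178 in 2D-EV libraries, with 186, 187 and 188 in TGF-beta1 libraries. All 2D-EV libraries lay above all control libraries, by 1.52-fold (log2 0.61, SE 0.05, adjusted p = 6.69e-07). Ltbp2, a latent TGF-beta binding protein of microfibrils, rose by log2 0.56 (adjusted p = 2.31e-07), and Itgav, the alpha chain of the integrins that free the latent ligand, rose from a mean of 524 ± 12.4 to 612 ± 3.63 CPM (SD, n = 3, as for all such values). Thbs1, the activator thrombospondin, read 1643, 1511 and 1740.5 CPM in control libraries, 2365, 2466 and 2538 in TGF-beta1 libraries and 2135, 2043 and 1979 in 2D-EV libraries, a log2 fold change of 0.33 over control (adjusted p = 9.76e-05). The other isoform gene Tgfb3 went the opposite way, from 584 ± 6.68 to 456 ± 6.54 CPM (log2 -0.36, adjusted p = 1.73e-06), and the latency protein gene Ltbp4 fell by 1.36-fold.

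Among 25 tested receptors, Smads and inhibitors, 4 rose and 6 fell against control (8 and 5 with TGF-beta1 alone). Pmepa1, a feedback inhibitor that takes Smads from the receptor, rose from 144 ± 8.15 to 192 ± 5.28 CPM (log2 0.41, adjusted p = 5.6e-06). Fkbp1a, which keeps the type I receptor inactive, and the type I receptor gene Acvr1 rose by log2 0.27 and 0.24. The co-receptor gene Tgfbr3 read 20.1, 19.4 and 21.1 CPM in control libraries and 12.3, 14.9 and 11.6 in 2D-EV libraries. Its groups were well apart, at 1.56-fold lower with 2D-EVs (adjusted p = 0.000246). Tgfbr2, the receptor that binds the ligand, fell by 1.12-fold and the ubiquitin ligase gene Smurf2 by 1.16-fold. Smad7, the inhibitory Smad that TGF-beta induces, read 104, 105 and 111 CPM in control libraries, 135, 122 and 129 in TGF-beta1 libraries and 112, 116 and 105 in 2D-EV libraries. It passed with TGF-beta1 alone (log2 0.27, adjusted p = 0.000417) and not with 2D-EVs, where the 95% interval of its log2 fold change was -0.04 to 0.15. The direct test between the treatments did not pass (log2 -0.22, adjusted p = 0.15).

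Of 23 tested TGF-beta target genes, 12 rose and 3 fell in 2D-EV cells (13 and 3 with TGF-beta1 alone). Edn1, the precursor gene of the vasoconstrictor endothelin, read 112, 113 and 103 CPM in control libraries, 181, 179 and 185 in TGF-beta1 libraries and 127, 148 and 150.2 in 2D-EV libraries (log2 0.38 over control, adjusted p = 0.000522). The 3 genes that fell were Id1, Id2 and Id3, inhibitors of helix-loop-helix factors and targets of BMP signalling, at log2 -0.31, -0.27 and -0.40.

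Matrix genes went both ways, with 11 of 33 tested interstitial matrix genes higher and 4 lower (14 and 4 with TGF-beta1 alone). Col1a1, which encodes a chain of type I collagen, read 181, 151 and 200.0 CPM in control libraries and 403, 362 and 309 in 2D-EV libraries, against 338, 364 and 364 in TGF-beta1 libraries. It was 2.02-fold above control in 2D-EV cells (log2 1.02, SE 0.09, adjusted p = 2.98e-06) with groups that did not overlap. Col1a2, the gene of the partner chain, was low, at means of 1.32 CPM in control and 1.64 CPM in 2D-EV cells and did not pass (adjusted p = 0.598). Fn1, fibronectin, read 589.5, 543 and 623 CPM in control libraries, 902, 944 and 959 in TGF-beta1 libraries and 953, 918 and 810.3 in 2D-EV libraries, which is 1.53-fold above control (adjusted p = 2.55e-06). Fbln2, the elastic fibre and basement membrane protein fibulin, rose most among such genes with a mean of at least 50 CPM and no overlap. It read 47.8, 41.1 and 43.8 CPM in control libraries and 151, 143 and 154 in 2D-EV libraries, 3.37-fold higher (log2 1.75, adjusted p = 1.22e-11). Fbln2 reached that mean only through the 2D-EV libraries. Spp1, osteopontin, a secreted matrix and injury protein, rose from 4207 ± 249.7 to 6230.2 ± 236 CPM (log2 0.57), and Postn, periostin, rose from 41.3 ± 3.71 to 66.7 ± 2.73 CPM (log2 0.69).

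The 4 interstitial matrix genes that fell included the fibrillar collagen gene Col3a1. It read 279, 216 and 291 CPM in control libraries, 87.0, 97.7 and 111 in TGF-beta1 libraries and 121, 117 and 94.6 in 2D-EV libraries, and every treated library lay below every control library. It was 2.37-fold lower in 2D-EV cells (log2 -1.24, 95% interval -1.48 to -1.01, adjusted p = 2.4e-06). Eln, the elastin gene, fell from 534 ± 64.6 to 359.9 ± 45.9 CPM (log2 -0.57), and Col14a1, a fibril-associated collagen gene, from 199 ± 6.59 to 138 ± 5.86 CPM (log2 -0.53).

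**Figure D3:**
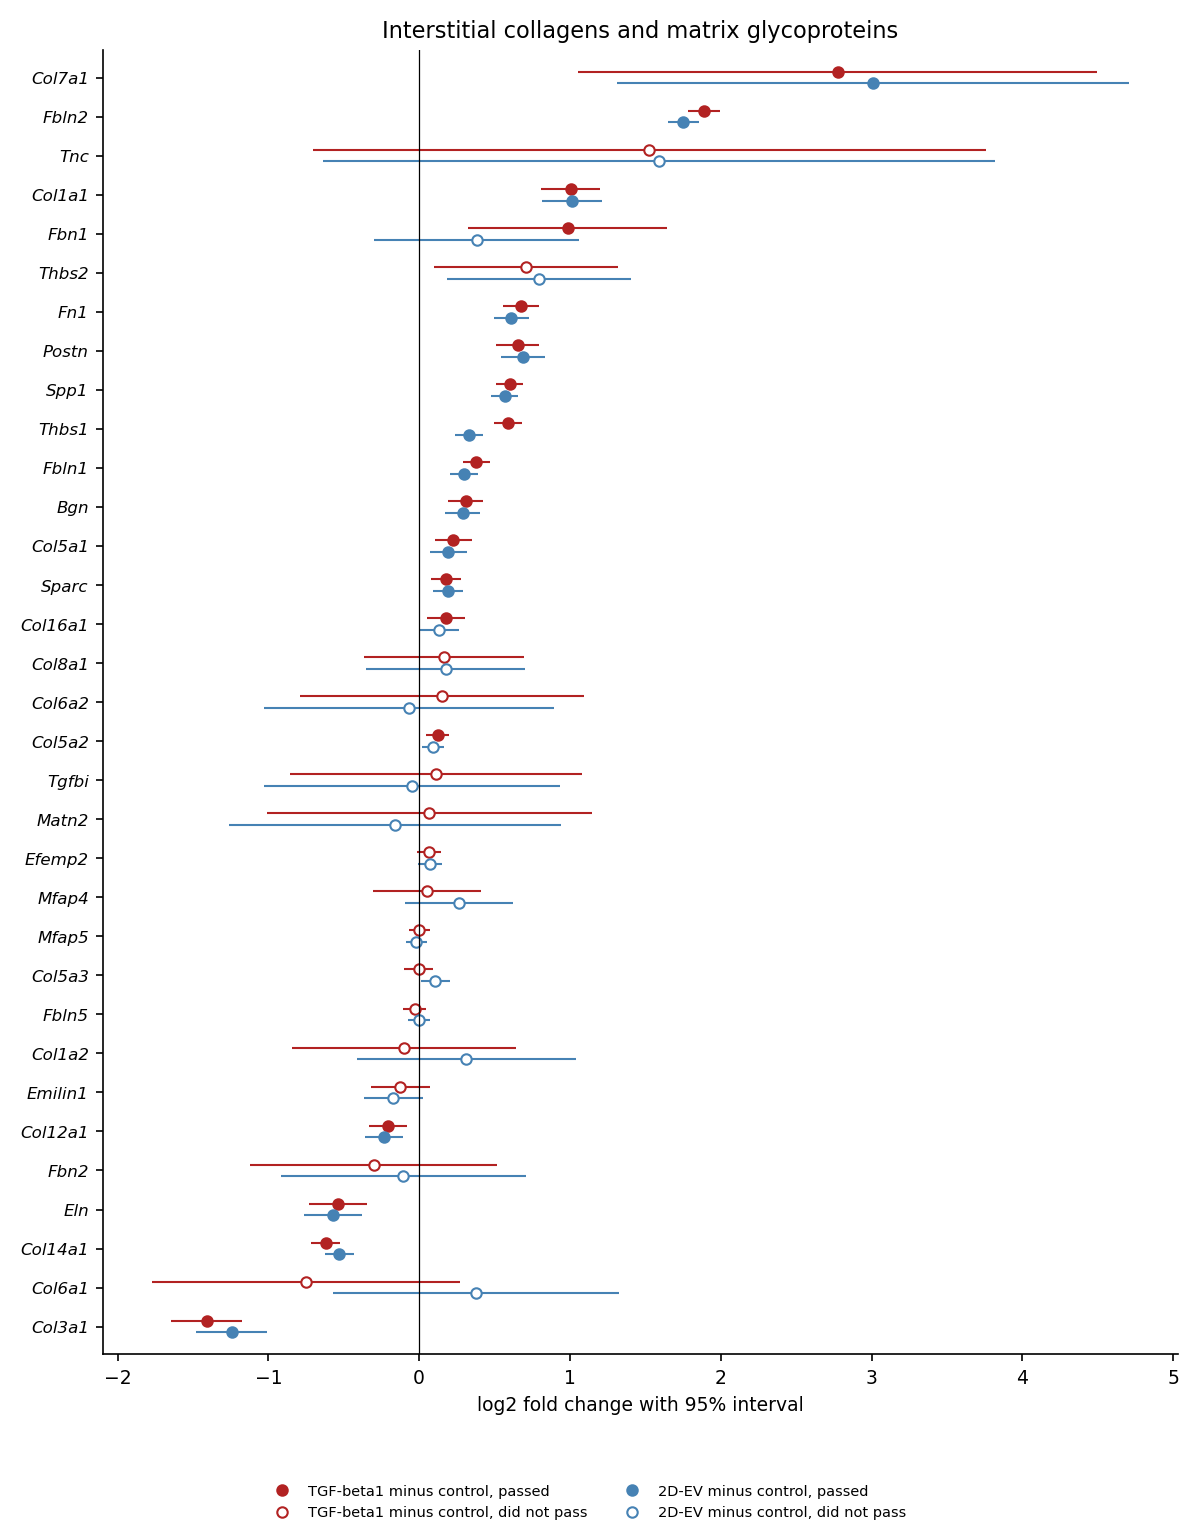
Log2 fold changes over control with 95% intervals (horizontal axis) for matrix genes, in 2D-EV cells and in TGF-beta1 cells, which share the 3 control libraries. Filled points passed. Intervals of Fbln2 and Col1a1 lie to the right of 0 and those of Col3a1 and Eln to the left in both comparisons.

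In the basement membrane list 4 of 19 tested genes rose and 5 fell. Lama3 and Lamb3, which encode chains of the laminin that anchors epithelial cells, were among those that rose. Lama3 read 65.2, 69.0 and 67.9 CPM in control libraries and 117, 124 and 118 in 2D-EV libraries. Lamb3 read 177, 180.0 and 182 CPM in control libraries and 289, 297 and 281 in 2D-EV libraries. Neither overlapped between the groups. Lama3 rose by 1.78-fold (adjusted p = 4.37e-07) and Lamb3 by 1.61-fold (adjusted p = 1e-08). Lamb2, a laminin chain of mature basement membranes, fell by 1.19-fold and Agrn, the heparan sulfate proteoglycan agrin, by 1.22-fold. The count of 5 lower genes was 2 without control replicate 3 or without 2D-EV replicate 3, and 3 with the replicate block or in the fit of only the 6 libraries.

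Of 29 tested genes of collagen processing and matrix turnover 12 rose and 4 fell. Loxl2, a collagen crosslinking oxidase, rose from 203 ± 4.60 to 294 ± 6.43 CPM (log2 0.53, adjusted p = 1.29e-07). Plaur, the receptor that gathers urokinase at the cell surface, read 88.2, 78.0 and 84.5 CPM in control libraries, 142, 129 and 137 in TGF-beta1 libraries and 121, 114 and 118 in 2D-EV libraries, 1.40-fold above control. The matrix protease genes Mmp2 and Adamts1 fell by 1.35-fold and 1.45-fold.

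The contractile cytoskeleton was the list in which the counts with and without vesicles stood furthest apart. Of 28 tested contractile genes, 11 rose and 0 fell in 2D-EV cells, with a median log2 fold change of 0.07, and 20 rose and 0 fell with TGF-beta1 alone, with a median of 0.17. In the direct test Acta2 was the only contractile gene that passed. Tagln, whose product transgelin binds actin in smooth muscle, read 410.2, 414 and 384 CPM in control libraries, 635, 607 and 613 in TGF-beta1 libraries and 526, 535 and 569 in 2D-EV libraries. It remained 1.35-fold above control (adjusted p = 1.66e-06), and its difference from TGF-beta1 cells did not pass (log2 -0.19, adjusted p = 0.101). Cald1, caldesmon, read 699.8, 706 and 723 CPM in control libraries, 906, 914 and 953 in TGF-beta1 libraries and 831, 806 and 823 in 2D-EV libraries, a log2 fold change of 0.21 over control (adjusted p = 0.000152). Cnn3, a calponin, rose by log2 0.29, and the intermediate filament gene Vim rose from 2333 ± 15.6 to 2681 ± 131 CPM (log2 0.20, adjusted p = 0.000312). Flna, the actin crosslinker filamin, passed with TGF-beta1 alone (log2 0.18, adjusted p = 0.00018) and not with 2D-EVs, where the 95% interval was -0.0011 to 0.11. Its values were 1052, 1103 and 1091 CPM in control libraries, 1211, 1215 and 1246 in TGF-beta1 libraries and 1113, 1138 and 1123 in 2D-EV libraries. Control and 2D-EV libraries of Flna thus did not overlap although the test did not pass, and 17.2% of all tested genes lay above control in this way.

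**Figure D4:**
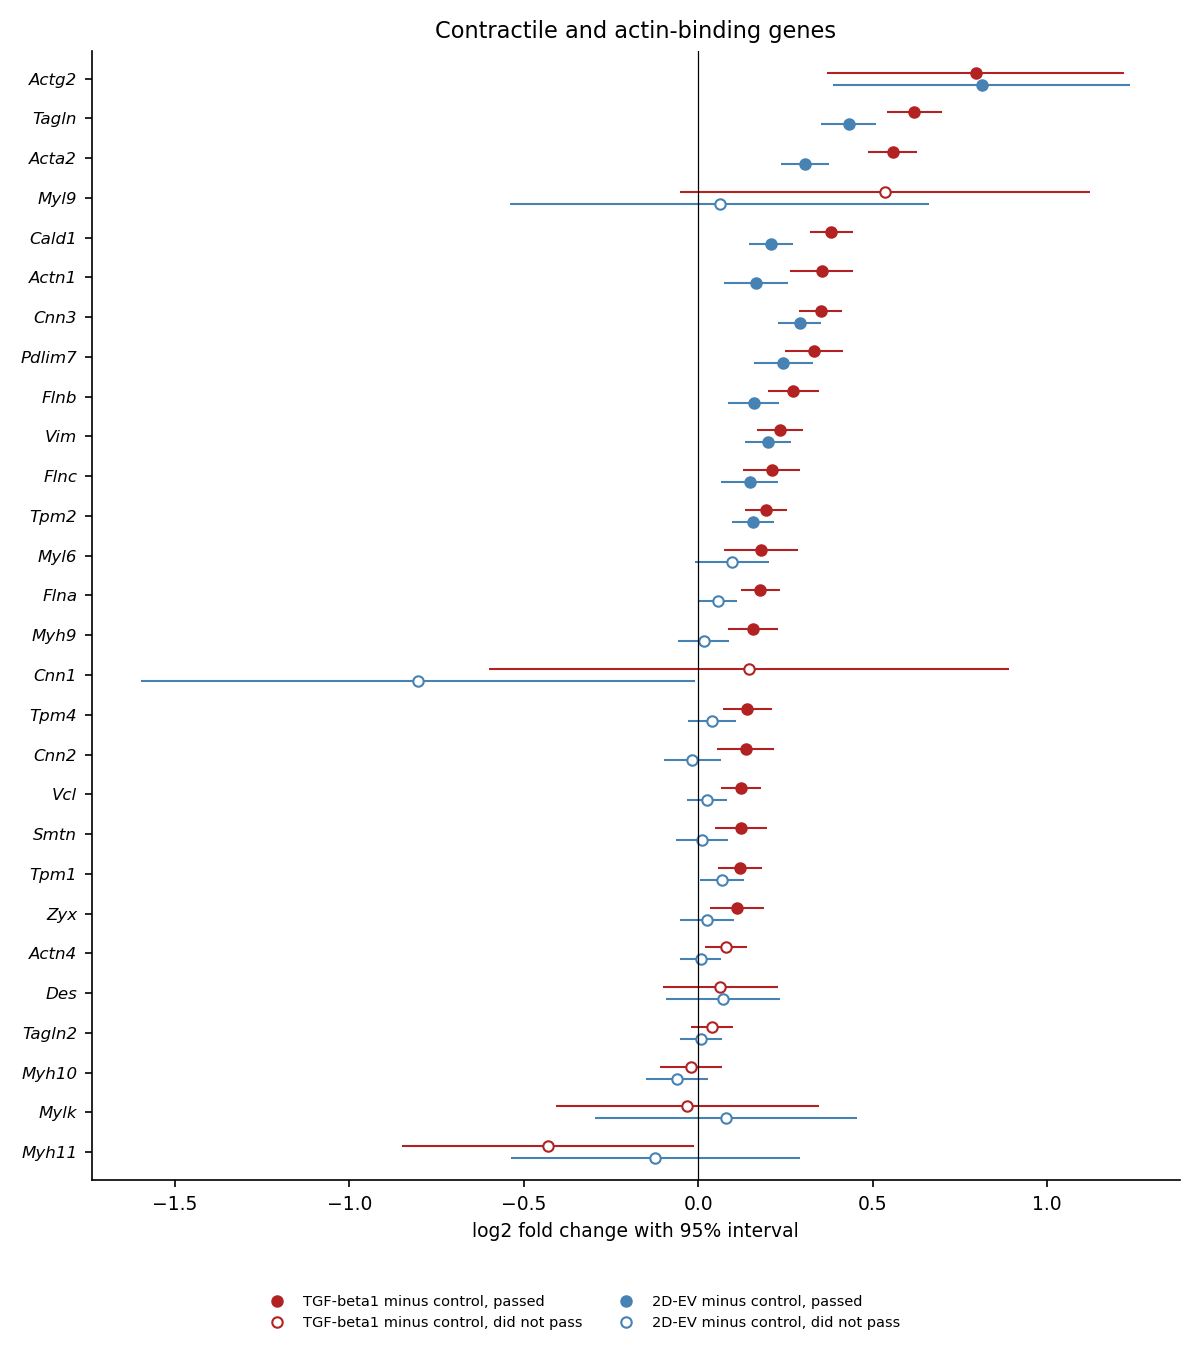
Log2 fold changes over control with 95% intervals (horizontal axis) for the contractile genes in 2D-EV cells and in TGF-beta1 cells. Filled points passed, 11 with 2D-EVs and 20 with TGF-beta1 alone. The points with 2D-EVs lie closer to 0 for genes such as Acta2, Tagln and Flna.

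Among 17 tested transcription factors and cadherins of the mesenchymal transition, 2 rose and 0 fell. The share that rose, 11.8%, was near the 10.5% of all tested genes that rose. Snai1, the repressor of epithelial junction genes, read 20.9, 18.6 and 21.1 CPM in control libraries, 31.3, 30.5 and 29.8 in TGF-beta1 libraries and 27.2, 25.3 and 25.5 in 2D-EV libraries (log2 0.36 over control, adjusted p = 0.000708). Foxc2, a forkhead factor, read 3.95, 4.17 and 3.70 CPM in control libraries, 8.28, 8.79 and 9.32 in TGF-beta1 libraries and 6.44, 6.17 and 6.74 in 2D-EV libraries, 1.64-fold above control (adjusted p = 0.000179). For both genes the 2D-EV mean lay between the other means, and neither differed from TGF-beta1 cells in the direct test (adjusted p = 0.311 and 0.171).

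Junction genes of epithelial cells split, with 4 of 21 tested higher and 6 lower. The higher count was 2 without control replicate 3 or without 2D-EV replicate 3. Tjp3, a scaffold of tight junctions, read 5.34, 5.40 and 6.50 CPM in control libraries and 2.89, 2.83 and 2.87 in 2D-EV libraries. It fell by 2.01-fold (adjusted p = 0.000276) with no overlap, Cgn, cingulin of the same junction, fell by 1.38-fold and Tjp1 by 1.18-fold. The keratin gene Krt8 and the junction plaque gene Jup were higher, by log2 0.22 (adjusted p = 9.86e-05) and 0.15 (adjusted p = 0.00793). Cdh1, E-cadherin, was low at 0.398, 0.642 and 0.840 CPM in control libraries and 0.408, 0.170 and 0.305 CPM in 2D-EV libraries and did not pass (log2 -1.08, 95% interval -2.27 to 0.10, adjusted p = 0.208).

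Of 30 renal tubule function genes 15 could be tested, and of these 2 rose and 0 fell (2 and 3 with TGF-beta1 alone). The share that rose, 13.3%, was near the 10.5% of all tested genes that rose. Ggt1, a brush border enzyme of glutathione breakdown, read 163, 159 and 173 CPM in control libraries and 309.6, 301 and 303 in 2D-EV libraries. These libraries were far apart, at 1.84-fold (adjusted p = 1.64e-09). Atp1b1, a subunit of the sodium pump, rose by log2 0.14 (adjusted p = 0.00196). Of 19 tested genes of tubular injury 12 rose and 2 fell (10 and 2 with TGF-beta1 alone). Cd44, a hyaluronan receptor of injured tubules, rose from 97.1 ± 0.734 to 124 ± 8.36 CPM (log2 0.36, adjusted p = 0.000112), and Tnfrsf12a, the TWEAK receptor gene, from 179 ± 5.64 to 220.2 ± 0.901 CPM. Anxa1, an anti-inflammatory annexin, fell by 1.13-fold (adjusted p = 0.000458). The count of 2 lower injury genes was 1 with the replicate block, in the fit of only the 6 libraries, and without control replicate 1 or 2 or 2D-EV replicate 1 or 2. The injury marker Lcn2 read 9.98, 9.54 and 11.2 CPM in control libraries and 11.3, 8.72 and 9.58 in 2D-EV libraries, which overlap (adjusted p = 0.785). Havcr1, the gene of kidney injury molecule KIM-1, read 0.171, 0 and 0.224 CPM in control libraries and 0 in every TGF-beta1 and 2D-EV library, too low to test.

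Proliferation genes were uniformly lower where they passed. Of 32 tested replication genes 0 rose and 14 fell, and of 31 tested mitosis genes 0 rose and 22 fell (0 and 13, and 0 and 21, with TGF-beta1 alone). Top2a, the topoisomerase of chromosome condensation, read 237, 233 and 242 CPM in control libraries, 192, 185 and 189 in TGF-beta1 libraries and 195, 184 and 193 in 2D-EV libraries. All treated libraries lay below control, and 2D-EV cells were 1.25-fold lower (log2 -0.32, adjusted p = 1.41e-05). Mki67, the proliferation marker Ki-67, read 147, 159 and 151 CPM in control libraries and 123, 119.6 and 121 in 2D-EV libraries, and the mitotic kinesin gene Kif11 fell by 1.28-fold. In the replication list the thymidylate synthase gene Tyms fell by 1.31-fold, the thymidine kinase gene Tk1 by 1.24-fold and the helicase subunit gene Mcm3 by 1.23-fold.

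Many mitotic genes carry a cell cycle homology region, TTTGAA, near the start. It is shown for Top2a in capitals, on the opposite strand and 22 bases before the start (RefSeq, GRCr8, 250 bases before the start, 5′ to 3′ on the gene's strand).
Top2a, chr10:84473094-84473343, minus strand: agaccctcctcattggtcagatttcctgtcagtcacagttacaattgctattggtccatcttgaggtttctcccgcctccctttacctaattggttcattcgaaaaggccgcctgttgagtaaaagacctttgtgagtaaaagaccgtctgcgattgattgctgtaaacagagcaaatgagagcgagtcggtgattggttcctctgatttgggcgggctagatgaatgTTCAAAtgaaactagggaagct
TTTGAA on either strand was found in 14 of 27 promoters of the mitosis list, against 16.2% of all promoters and 10.6% of those of tested genes. The CCAAT box, searched as ATTGG on either strand, was found in 21 of 27, against 34% and 35.3%.

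Genes of cell cycle arrest and the p53 response gave 2 of 23 tested higher and 4 lower (4 and 6 with TGF-beta1 alone). Over all tested genes 10.5% were higher and 8.13% lower in 2D-EV cells. Pmaip1, the p53 target NOXA, rose by log2 0.23 (adjusted p = 0.000297). The kinase inhibitor genes Cdkn1b and Cdkn2c fell by 1.22-fold and 1.32-fold. The higher count was 1 without control replicate 3 or 2D-EV replicate 3, and the lower count 2 without 2D-EV replicate 3.

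Cholesterol synthesis was the list with the largest share of higher genes among the response lists, 23 of 26 tested against 10.5% of all genes, with 0 lower (23 and 0 with TGF-beta1 alone). Mvd, a decarboxylase of the mevalonate pathway, read 142, 132 and 138 CPM in control libraries and 191, 209 and 223 in 2D-EV libraries, with 212, 199 and 194 in TGF-beta1 libraries. The treated libraries all lay above control, and 2D-EV cells were 1.51-fold higher (log2 0.60, SE 0.05, adjusted p = 2.54e-06). Hmgcs1, which acts at the start of the pathway, rose from 481 ± 11.4 to 591 ± 32.7 CPM (log2 0.30, adjusted p = 0.000107). The Hmgcs1 promoter is shown with its CCAAT boxes in capitals as ATTGG on the opposite strand, 188 and 133 bases before the start (RefSeq, GRCr8).
Hmgcs1, chr2:53382054-53382303, plus strand: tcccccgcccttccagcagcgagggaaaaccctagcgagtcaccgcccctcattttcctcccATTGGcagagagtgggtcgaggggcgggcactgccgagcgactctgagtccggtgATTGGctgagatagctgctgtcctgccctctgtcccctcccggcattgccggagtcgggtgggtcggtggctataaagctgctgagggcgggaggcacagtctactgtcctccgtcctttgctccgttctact
A CCAAT box was found in 14 of 18 promoters of the cholesterol list (77.8%, the same share as in the mitosis list), against 35.3% of promoters of tested genes. The sterol element, searched as TCACNCCAC on either strand, was found in 0 of 18, against 0.936% of promoters of tested genes, which says only that these letters are not in this window.

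Of 19 tested genes of fatty acid synthesis 11 rose and 1 fell. The 1 lower gene did not pass in the fit of only the 6 libraries or without control replicate 1 or 3 or 2D-EV replicate 1 or 2. Acss2, which makes acetyl-CoA from acetate, rose from 92.9 ± 5.27 to 147 ± 13.1 CPM (log2 0.66, adjusted p = 2.04e-06), Fasn, fatty acid synthase, from 287 ± 3.99 to 372 ± 9.95 CPM, and Me1, malic enzyme, by log2 0.36. Of 26 tested genes of fatty acid oxidation 2 rose and 7 fell (2 and 9 with TGF-beta1 alone). Pdk4, a kinase that inhibits pyruvate dehydrogenase, read 12.5, 8.81 and 11.3 CPM in control libraries and 6.27, 5.66 and 5.25 in 2D-EV libraries, 1.89-fold lower (adjusted p = 0.000299). Decr1, a reductase for unsaturated fatty acids, fell by 1.26-fold (adjusted p = 4.96e-05), while the thiolase subunit gene Hadhb rose by log2 0.17. The count of lower genes was 4 without control replicate 1 and 2 without control replicate 3 or 2D-EV replicate 2.

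Of 29 tested NRF2 and detoxification genes 6 rose and 9 fell (4 and 11 with TGF-beta1 alone). The largest falls were in drug metabolism. Aldh3a1, an aldehyde dehydrogenase, read 18.4, 15.1 and 17.5 CPM in control libraries, 4.05, 3.91 and 4.53 in TGF-beta1 libraries and 7.35, 4.25 and 4.76 in 2D-EV libraries. Sult1a1, a sulfotransferase, read 5.15, 5.52 and 6.38 CPM in control libraries, 0.949, 0.927 and 1.18 in TGF-beta1 libraries and 1.90, 1.64 and 1.56 in 2D-EV libraries. For both, every 2D-EV library was below every control library. The falls were 3.12-fold for Aldh3a1 (adjusted p = 5.74e-06) and 3.34-fold for Sult1a1 (adjusted p = 6.66e-06), and the epoxide hydrolase gene Ephx1 fell by 1.61-fold. Ftl1, the ferritin light chain, rose from 2973 ± 104 to 4310.1 ± 112 CPM (log2 0.54, adjusted p = 9.76e-08), and the peroxide-removing enzyme genes Gpx1 and Cat rose by log2 0.22 and 0.21.

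Lysosome genes passed upward only, 15 of 31 tested (14 with TGF-beta1 alone, 0 lower in both). Neu1, the lysosomal sialidase, read 158, 152 and 172 CPM in control libraries and 279, 294 and 274 in 2D-EV libraries. The groups did not overlap, and the difference was 1.76-fold (log2 0.81, adjusted p = 1e-08). Npc2, a carrier of cholesterol in the lysosome, rose from 675 ± 18.2 to 836 ± 23.4 CPM and the galactosidase gene Gla by log2 0.34.

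Inflammatory genes gave 6 of 24 tested higher and 4 lower (4 and 5 with TGF-beta1 alone). Ccl2, the chemokine that draws monocytes, read 2.79, 3.38 and 3.50 CPM in control libraries, 8.22, 6.80 and 7.69 in TGF-beta1 libraries and 7.93, 8.52 and 7.39 in 2D-EV libraries. It was low but 2.46-fold above control without overlap (adjusted p = 0.000591). Ptgs2, the inducible cyclooxygenase, rose by log2 0.57 (adjusted p = 0.00163) and Tnfaip2 by log2 0.40 (adjusted p = 1.6e-06), while the macrophage growth factor gene Csf1 fell by 1.19-fold (adjusted p = 0.000774). The count of higher genes was 3 without control replicate 1 or without 2D-EV replicate 2. That of lower genes was 1 without control replicate 1 or 3 or 2D-EV replicate 3, and 2 without 2D-EV replicate 1. Interferon response genes gave 1 of 29 tested higher (Usp18, log2 0.44) and 3 lower, against 10.5% and 8.13% of all tested genes. The lower count was 6 with DESeq2, 1 with the replicate block, 0 without control replicate 3 or 2D-EV replicate 2 and 1 without control replicate 1 or 2D-EV replicate 3, and the higher count was 2 without 2D-EV replicate 3. In antigen presentation 2 of 16 tested rose and 2 fell, against the same shares of all tested genes. Those that rose, Calr and Pdia3, are chaperones of the endoplasmic reticulum (log2 0.15 and 0.10). Pdia3 lost its call without control replicate 3 (adjusted p = 0.0592), without 2D-EV replicate 3 (0.0549) and in the fit of only the 6 libraries (0.0568). The lower count was 0 without 2D-EV replicate 3, and 1 with limma-voom, in the fit of only the 6 libraries and without any 1 of the control replicates or 2D-EV replicate 1.

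Chaperone genes of the unfolded protein response and ATF4 targets gave 12 of 30 tested higher and 1 lower (9 and 2 with TGF-beta1 alone), and 2 lower without control replicate 2. Vldlr, a lipoprotein receptor that ATF4 induces, rose from 45.4 ± 0.373 to 66.8 ± 4.31 CPM (log2 0.56, adjusted p = 2.98e-06), and Asns, asparagine synthetase, from 163 ± 7.55 to 201 ± 14.9 CPM. Psat1, an enzyme of serine synthesis, went down from 140.4 ± 6.55 to 120.1 ± 8.08 CPM (adjusted p = 0.00673). Heat shock genes gave 7 of 16 tested higher and 0 lower. The small heat shock protein genes Hspb8, Hspb1 and Cryab rose by log2 0.40, 0.18 and 0.22. That count of 7 was 4 without any 1 of the 3 control replicates or 2D-EV replicates 1 or 3, with no filter on low counts and in the fit of only the 6 libraries. Of 27 tested glycolysis and hypoxia genes 10 rose and 0 fell (1 fell without control replicate 2). Eno2, an enolase, rose from 145 ± 2.42 to 194 ± 18.0 CPM, Pfkfb4, a regulator of glycolytic flux, by log2 0.64, and Vegfa, the vascular growth factor, by log2 0.45 (adjusted p = 2.9e-05). Nuclear genes of the respiratory chain gave 1 of 27 tested higher (0 without control replicate 3 or 2D-EV replicate 3) and 1 lower, below the shares among all genes.

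In the YAP list 4 of 24 tested rose and 4 fell. Ankrd1, a YAP target, read 37.9, 46.2 and 36.3 CPM in control libraries, 75.2, 64.3 and 66.7 in TGF-beta1 libraries and 49.8, 55.8 and 63.7 in 2D-EV libraries. It was 1.41-fold above control (adjusted p = 0.00247) and not different from TGF-beta1 cells in the direct test (log2 -0.29, adjusted p = 0.478). Wwtr1, which encodes the YAP paralogue TAZ, and the YAP regulator gene Amotl2 fell by 1.12-fold and 1.15-fold. Immediate early and growth factor feedback genes gave 0 of 29 tested higher and 9 lower. Zfp36, which encodes an mRNA decay factor, fell by 1.43-fold (adjusted p = 0.00135), and the receptor tyrosine kinase inhibitors Spry2 and Spry4 by 1.31-fold and 1.31-fold. Without control replicate 3 or without 2D-EV replicate 3 the count was 5. Klf6, a zinc finger factor of this list, passed (log2 -1.86, adjusted p = 0.00395) although its groups overlap, since control libraries read 60.5, 11.5 and 64.7 CPM and 2D-EV libraries 11.5, 12.8 and 13.4. It did not pass with limma-voom (adjusted p = 0.0853). Cell death genes gave 6 of 32 tested higher and 3 lower, against 10.5% and 8.13% of all tested genes. Ripk3, the kinase of necroptosis, read 201, 194 and 177 CPM in control libraries and 269, 289.8 and 323 in 2D-EV libraries, 1.54-fold higher (adjusted p = 4.4e-06), and Bid, a BH3-only protein gene, rose by log2 0.32. The survival gene Mcl1 and the BH3-only gene Bcl2l11 fell by 1.14-fold and 1.33-fold.

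Genes of vesicle release and uptake gave 6 of 31 tested higher and 8 lower, the same numbers as with TGF-beta1 alone. The caveola genes were the main falls. Cav1, the coat protein of caveolae, read 1118, 1119.9 and 1162 CPM in control libraries, 790.4, 792 and 823 in TGF-beta1 libraries and 853, 807 and 844 in 2D-EV libraries. It was 1.36-fold lower than control (adjusted p = 2.1e-07), and its partners Cav2 and Cavin2 were 1.34-fold and 1.38-fold lower. The tetraspanin genes Cd151 and Cd63 rose by log2 0.35 and 0.15 and the ESCRT accessory gene Pdcd6ip by 0.19.

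Of 33 tested growth factor and receptor genes 9 rose and 8 fell. Nppb, the natriuretic peptide BNP, read 4.86, 5.78 and 3.64 CPM in control libraries, 17.1, 16.1 and 15.7 in TGF-beta1 libraries and 13.9, 14.3 and 17.3 in 2D-EV libraries. It rose by 3.18-fold (adjusted p = 1.49e-06). F2r, the thrombin receptor, rose by log2 0.21 (adjusted p = 0.000224). Igfbp2, which binds insulin-like growth factors, read 266, 232 and 257 CPM in control libraries and 126, 129.6 and 113 in 2D-EV libraries, 2.05-fold lower (adjusted p = 1.9e-07), and the receptor genes Met and Erbb2 fell by 1.23-fold and 1.23-fold. Wnt, Notch and BMP genes gave 4 of 36 tested higher and 10 lower, against 10.5% and 8.13% of all tested genes. Wnt11 and the Wnt antagonist gene Nkd1 rose by log2 1.07 (adjusted p = 0.000256) and 0.76 (adjusted p = 0.000305), and Bmp4 fell from 123 ± 2.64 to 94.4 ± 3.69 CPM. Clock genes gave 1 of 16 tested higher and 4 lower, and 2 lower without control replicate 1 or 2 or 2D-EV replicate 2. Dbp, an output gene of the clock, read 28.6, 29.9 and 28.6 CPM in control libraries, 18.2, 18.2 and 21.6 in TGF-beta1 libraries and 22.4, 25.1 and 22.1 in 2D-EV libraries (log2 -0.32 over control, adjusted p = 0.00749).

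**Figure D5:**
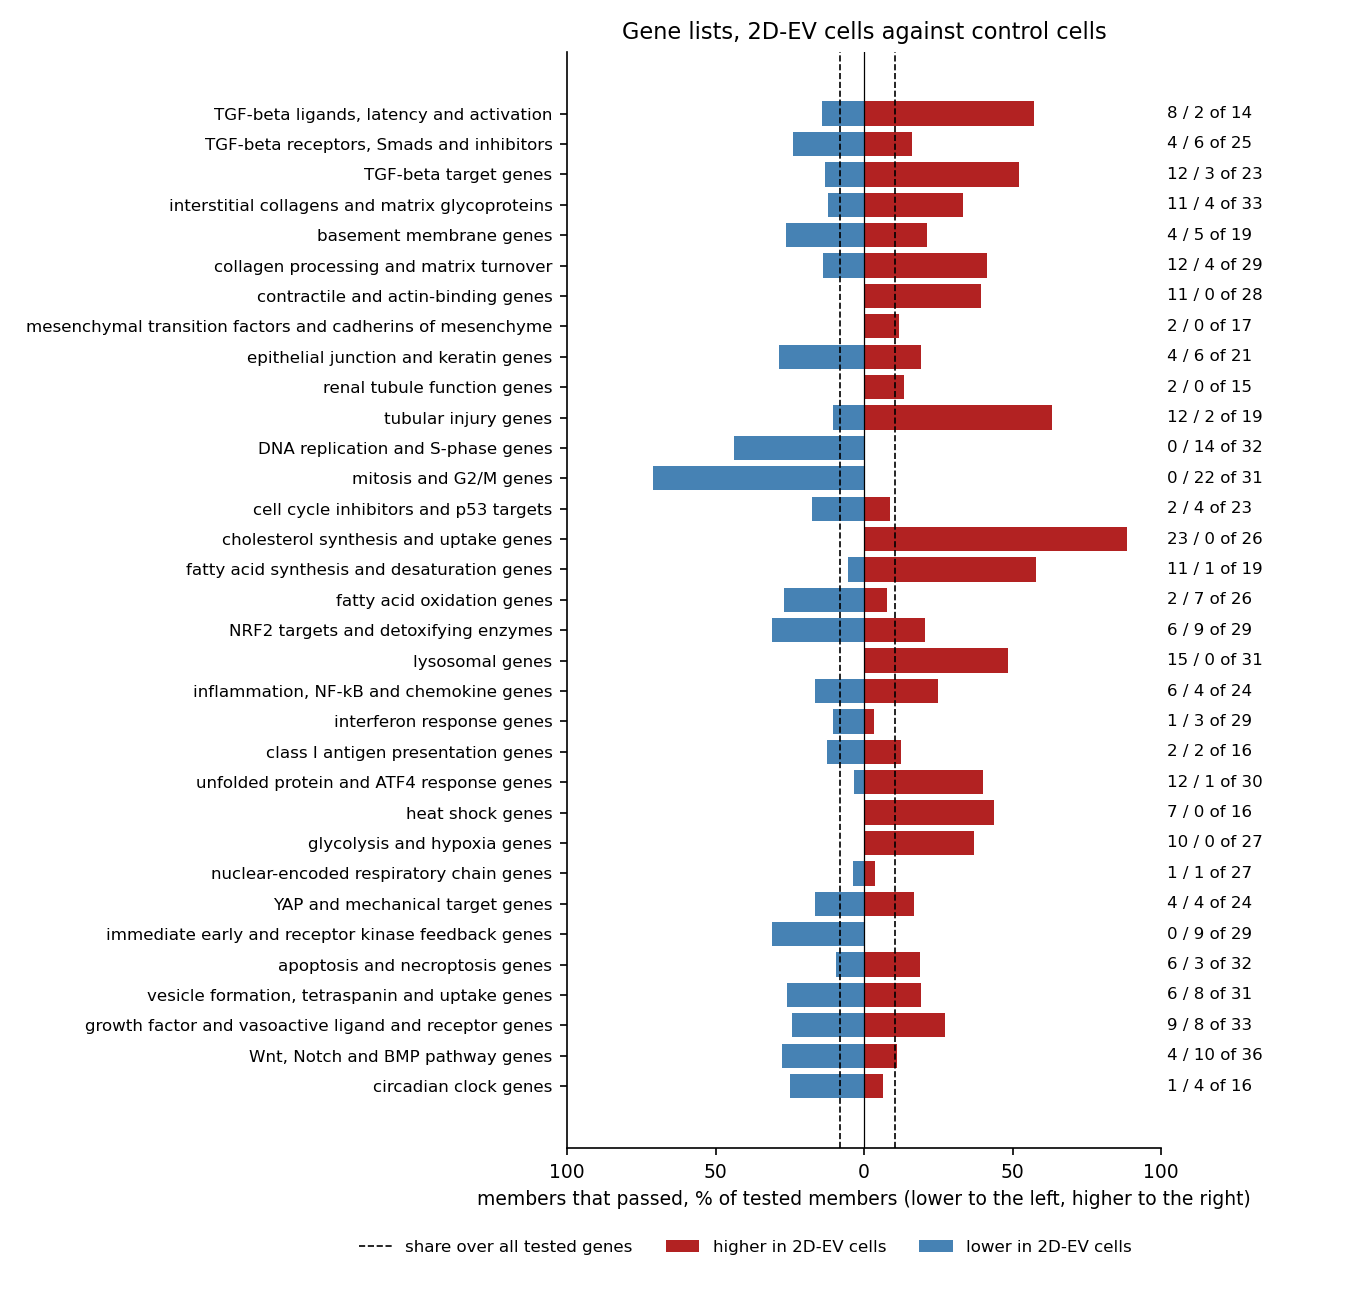
For each response list, the share of tested members that passed higher (to the right) or lower (to the left) in 2D-EV cells against control cells, with counts at the right. Dashed lines mark the shares over all tested genes (10.5% higher, 8.13% lower). Cholesterol synthesis and lysosome genes lie on the higher side only, and replication and mitosis genes on the lower side only.

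Among genes chosen for a mean of at least 1 CPM over the 6 libraries, a gene symbol and libraries that did not overlap, the largest differences were in weakly expressed genes. Ctsw, a cathepsin of cytotoxic lymphocytes, read 0.341, 0.233 and 0.616 CPM in control libraries and 1.98, 2.10 and 1.77 in 2D-EV libraries (log2 2.28, adjusted p = 7.12e-05), so that it reached that mean only through the 2D-EV libraries. Elf5, an epithelial transcription factor, read 1.02, 1.37 and 1.29 CPM in control libraries, 7.62, 7.73 and 6.49 in TGF-beta1 libraries and 6.30, 4.90 and 5.77 in 2D-EV libraries, and rose by 4.60-fold (adjusted p = 3.79e-07). Birc7, an inhibitor of apoptosis, rose by 3.91-fold and the secreted protein gene Srpx2 by 3.48-fold. Selenbp1, a selenium-binding methanethiol oxidase, fell by 5.05-fold, from 7.05, 6.68 and 8.15 CPM in control libraries to 0.991, 2.04 and 1.28 in 2D-EV libraries. Serping1, the inhibitor of complement C1, fell by 3.40-fold, Mgp, the calcification inhibitor matrix Gla protein, by 2.56-fold and Plagl1, an imprinted zinc finger factor, by 2.74-fold. Plagl1 read 71.1, 68.2 and 68.6 CPM in control libraries, 23.5, 25.7 and 25.9 in TGF-beta1 libraries and 24.2, 26.8 and 24.9 in 2D-EV libraries (adjusted p = 1.04e-09).

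Among genes with a mean of at least 50 CPM the leading rises after Fbln2 included Selp, the adhesion receptor P-selectin. It read 33.3, 32.9 and 36.8 CPM in control libraries and 104, 93.2 and 92.8 in 2D-EV libraries, 2.82-fold higher (adjusted p = 1.31e-09). Creb3l1, a membrane-bound factor that drives collagen secretion, read 39.7, 38.5 and 41.0 CPM in control libraries, 81.2, 87.5 and 83.4 in TGF-beta1 libraries and 82.8, 80.4 and 85.5 in 2D-EV libraries. It was 2.09-fold above control (adjusted p = 1.15e-09), and treated groups overlapped each other. Selp and Creb3l1, like Fbln2, lay below 50 CPM in every control library and reached the required mean only through the 2D-EV libraries. Padi3, a peptidyl arginine deiminase, rose by 1.79-fold. The leading falls after Col3a1 and Igfbp2 included Nrp2, a neuropilin co-receptor, at 1.72-fold (adjusted p = 0.000857), and Sqor, which oxidises hydrogen sulfide in mitochondria, at 1.71-fold (adjusted p = 4.04e-09). Npnt, a kidney matrix protein that binds integrins, fell by 1.58-fold and Deptor, an inhibitor of mTOR, by 1.55-fold.

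In the response lists and the panel, 77 genes passed with TGF-beta1 alone and not with 2D-EVs. The direct test between the treatments passed for 0 of the 77. This was settled beforehand, because all 4 genes that passed it had also passed against control with 2D-EVs. Over all tested genes, too, more passed with TGF-beta1 alone (22%) than with 2D-EVs (18.6%). The share of all genes that passed only with TGF-beta1 alone was not computed, so the 77 say nothing particular about these lists. Besides Smad7 and Flna, the 8 with the smallest p with TGF-beta1 alone included Ddit4, an inhibitor of mTOR, with 101, 94.7 and 98.9 CPM in control libraries, 82.4, 78.6 and 80.8 in TGF-beta1 libraries and 95.5, 93.4 and 87.3 in 2D-EV libraries. Its log2 fold change over control was -0.28 with TGF-beta1 alone and -0.09 (95% interval -0.18 to 0.0016) with 2D-EVs. Hadh, a dehydrogenase of fatty acid oxidation, read 28.5, 29.4 and 27.1 CPM in control libraries, 21.2, 22.4 and 19.7 in TGF-beta1 libraries and 27.2, 22.8 and 25.9 in 2D-EV libraries, with log2 fold changes of -0.42 and -0.16 (95% interval -0.31 to -0.01). For the ubiquitin ligase gene Smurf1, the log2 fold changes were 0.18 and 0.07 (95% interval -0.01 to 0.15), and for Bok, a BCL2 family gene, 0.30 and 0.13 (95% interval 0.0015 to 0.26). Missing the threshold with 2D-EVs does not show that a gene was back at the control level.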

How the data were processed

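RNA of NRK-52E cells was sequenced in 12 libraries, 3 per group. Per the submitters' processing notes the authors used fastp, HISAT2, StringTie and DESeq2 with build mRatBN7.2. No version, counting setting, strand handling or annotation release is given in the sources used here, so reads of overlapping and antisense genes cannot be told apart. The deposited values are whole-number counts per gene, without normalization, for 24660 genes. The joint table repeats the 12 tables per library exactly, and its unused columns number 0. A value of 2 is commoner in it than a value of 1 (5687 against 1514 cells), so very low counts may not be single reads.

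Counts were tested in R 4.3.3 with edgeR 4.0.16. All 12 libraries, with 32888125 to 39754319 counts each, were fitted together by group, with TMM scaling. Genes were kept by filterByExpr (minimum count 10, 14184 genes), tested by the quasi-likelihood F-test and adjusted by the Benjamini-Hochberg method over all of them, with a threshold of 0.05. Pairs of libraries within a group differed by 6.67 to 10.6 times the counting variance. The script was tested on simulated data. Alternatives were DESeq2, limma-voom, DESeq2's size factors, no filter, a minimum count of 50, a replicate block, a fit of only the 6 libraries compared, and leaving out each library in turn.

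The libraries, the 33 response lists and the 9 marker lists were chosen with earlier results of these data known. Named genes were the 10 largest rises and falls among passing genes whose libraries did not overlap, at a mean of at least 1 CPM and again at 50 CPM, a panel of fibrosis and injury genes (including Tgfb1, Ccn2, Col1a1, Fn1, Acta2, Vim, Cdh1, Lcn2 and Havcr1), up to 3 rises and 3 falls of smallest p per list, genes that also passed against TGF-beta1 cells, and 8 genes that passed with TGF-beta1 alone. Some of the genes so chosen are not reported here. Cald1, Col1a2, Edn1, Hmgcs1, Klf6, Postn, Thbs1, Smad3, Crim1, the markers and the promoter motifs were named after their values were seen. Promoters are RefSeq's (GRCr8), matched by symbol for 9715 tested genes. Motifs searched on both strands were those of TEAD, Smads (a palindrome and a short element), E-box factors, AP-1, the CCAAT box, the cell cycle homology region, the sterol element and the CArG box.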

Additional observations from a re-analysis of the deposited data

How the results depend on the processing

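The 2642 genes that differed between 2D-EV cells and control cells became 2241 to 2818 under the alternatives that keep all replicates, and 2006 to 2311 with a library left out (1176 to 1311 higher, 830 to 1000 lower). The number of passing list genes, 330, lay between 274 and 350. The median log2 fold change of all genes was -0.002, and -0.001 with DESeq2's size factors. Same-numbered libraries had residual correlations of -0.108 to 0.112 over 18 pairs and so share only a number; with the replicate block 2362 genes passed (1354 higher, 1008 lower). Of the named genes against control, 2258 gene and setting pairs kept their call and direction, 65 lost the call, 1 gained it and 2 reversed: the log2 fold change of Lcn2, which does not pass, became 0.0123 without control replicate 3 and 0.0237 without 2D-EV replicate 2, in a range of -0.1641 to 0.0237. Of the list counts 796 stayed within 1.5 times the count given and 62 did not, 58 of them smaller.
The direct test against TGF-beta1 cells depended most on the processing. Its 4 genes became 14 with no filter on low counts (2 higher, 12 lower), 56 with DESeq2 (18 higher, 38 lower), 9 with limma-voom (9 lower), 7 in the fit of only the 6 libraries compared (2 higher, 5 lower, without Frmd4a) and 1 to 3 with a library left out (0 to 1 higher, 1 to 3 lower). Tagln, Smad7 and Flna passed with DESeq2 (adjusted p = 0.000539, 0.00446 and 0.00473). In that comparison the log2 difference of Col1a1 reversed to -0.0239 without TGF-beta1 replicate 1 and -0.0803 without 2D-EV replicate 1 (range -0.0803 to 0.1071), and Fn1 to 0.0008 without 2D-EV replicate 3 (range -0.1136 to 0.0008). The cause was not tested. A count of 0 allows up to 0.0840 to 0.0916 CPM, and differences below that level were not detectable.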

Other observations

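Some regulators passed in 2D-EV cells and not in TGF-beta1 cells, in tests that share the 3 control libraries, and were picked after their values were seen. Smad3, the Smad that carries the TGF-beta signal to matrix genes, read 30.6, 30.8 and 31.6 CPM in control libraries, 28.5, 31.1 and 29.6 in TGF-beta1 libraries and 26.9, 26.5 and 24.4 in 2D-EV libraries. All 2D-EV libraries lay below all control libraries. The log2 fold change of Smad3 over control was -0.26 (edgeR, adjusted p = 0.00628) with 2D-EVs and -0.06 (adjusted p = 0.524) with TGF-beta1 alone. Crim1, a membrane protein that tethers growth factors of the TGF-beta family, read 149, 159 and 162 CPM in control libraries, 137, 146 and 154 in TGF-beta1 libraries and 129, 144 and 124 in 2D-EV libraries. Its log2 fold change over control was -0.24 (adjusted p = 0.00955) with 2D-EVs and -0.10 (adjusted p = 0.241) with TGF-beta1 alone. The difference between the treatments did not pass for Smad3 (log2 -0.20, adjusted p = 0.386) or Crim1 (log2 -0.14, adjusted p = 0.637), so these data do not show that the genes respond differently with vesicles.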
